A study of Saccharomyces cerevisiae with 2 samples.

Results

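The respiratory chain and ATP synthase genes of budding yeast (Saccharomyces cerevisiae) were examined for DHS (DNase I hypersensitive sites, where the enzyme DNase I cuts chromatin readily) and for footprints, the short protected stretches within them. The members were the nuclear protein-coding genes of the R64 gene table with a COX, QCR, SDH or ATP symbol followed by a number, and 54 of 6002 nuclear protein-coding genes met this rule. COX1, COX2, COX3, ATP6 and ATP8 lie on the mitochondrial genome and were not included. By role, 9 members belonged to complex II (succinate dehydrogenase), 6 to complex III (cytochrome bc1), 20 to complex IV (cytochrome c oxidase) and 19 to the ATP synthase. Structural subunits made up 33 of the 54, and 21 were assembly factors or, in the case of SDH9, a paralog of the flavoprotein subunit SDH1.

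There was 1 library from a strain with the temperature-sensitive Hsp90 allele G170D and 1 from a wild-type (WT) strain, both of the haploid laboratory background BY4741. Cultures in rich YPD medium at 37 °C started at an OD of 0.37 for G170D and 0.25 for WT, and nuclei were taken after 6 h at an OD of 0.65 to 0.7. Growth over these hours therefore differed and cannot be told apart from strain. Hsp90 is an abundant cytosolic chaperone, and the lists hold no sequence with which the allele could be checked. With 1 library per strain there was no replicate error and no test. The G170D lists held 2875 DHS and 33585 footprints, against 3155 DHS and 45019 footprints in WT, and the read depth behind them is unknown. Percent intervals are exact Clopper-Pearson 95% intervals, which treat genes or footprints as independent and cover counting error only.

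The respiratory chain passes electrons from succinate and NADH to oxygen and pumps protons across the inner mitochondrial membrane, and the ATP synthase uses the returning protons to make ATP. Budding yeast lacks a proton-pumping complex I. In glucose-rich medium it ferments, and its respiratory genes are known to be repressed by glucose and activated by the Hap complex, whose regulatory subunit is Hap4.

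At each gene 3 windows were read, namely the 500 bp upstream of the coding start, the gene body from coding start to coding end, and the 500 bp after the coding end. A DHS was counted from 1 bp in a window, and a footprint was counted by its midpoint. In the merged windows of all members, 90.0 kb in total, DHS covered 23.0% of the length in G170D and 25.0% in WT. The merged windows of all 6002 genes were covered over 13.8% in G170D and 16.8% in WT. The DHS length at the members thus differed by -8.29% in G170D relative to WT, against -17.8% over all genes. A DHS reached at least 1 window of 33 members in each strain, of 30 members in both and of 36 in either. The 18 members without one (33.3%, against 33.6% of all genes) were SDH1, SDH5, SDH7, SDH8, QCR2, COX10, COX11, COX15, COX19, COX20, COX23, COX26, ATP7, ATP10, ATP11, ATP14, ATP18 and ATP23. No DHS touched the windows of more than 1 member. Of the regions involved, 7 of 41 in G170D and 8 of 44 in WT overlapped no DHS of the other strain (17.1% and 18.2%), against 17.7% of the whole G170D list and 28.3% of the whole WT list. The regions involved were wider, with a median of 732 bp in G170D and 635.5 bp in WT, against 426 and 375 bp in the whole lists. The part of width in these shares was not tested.

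**Figure D1:**
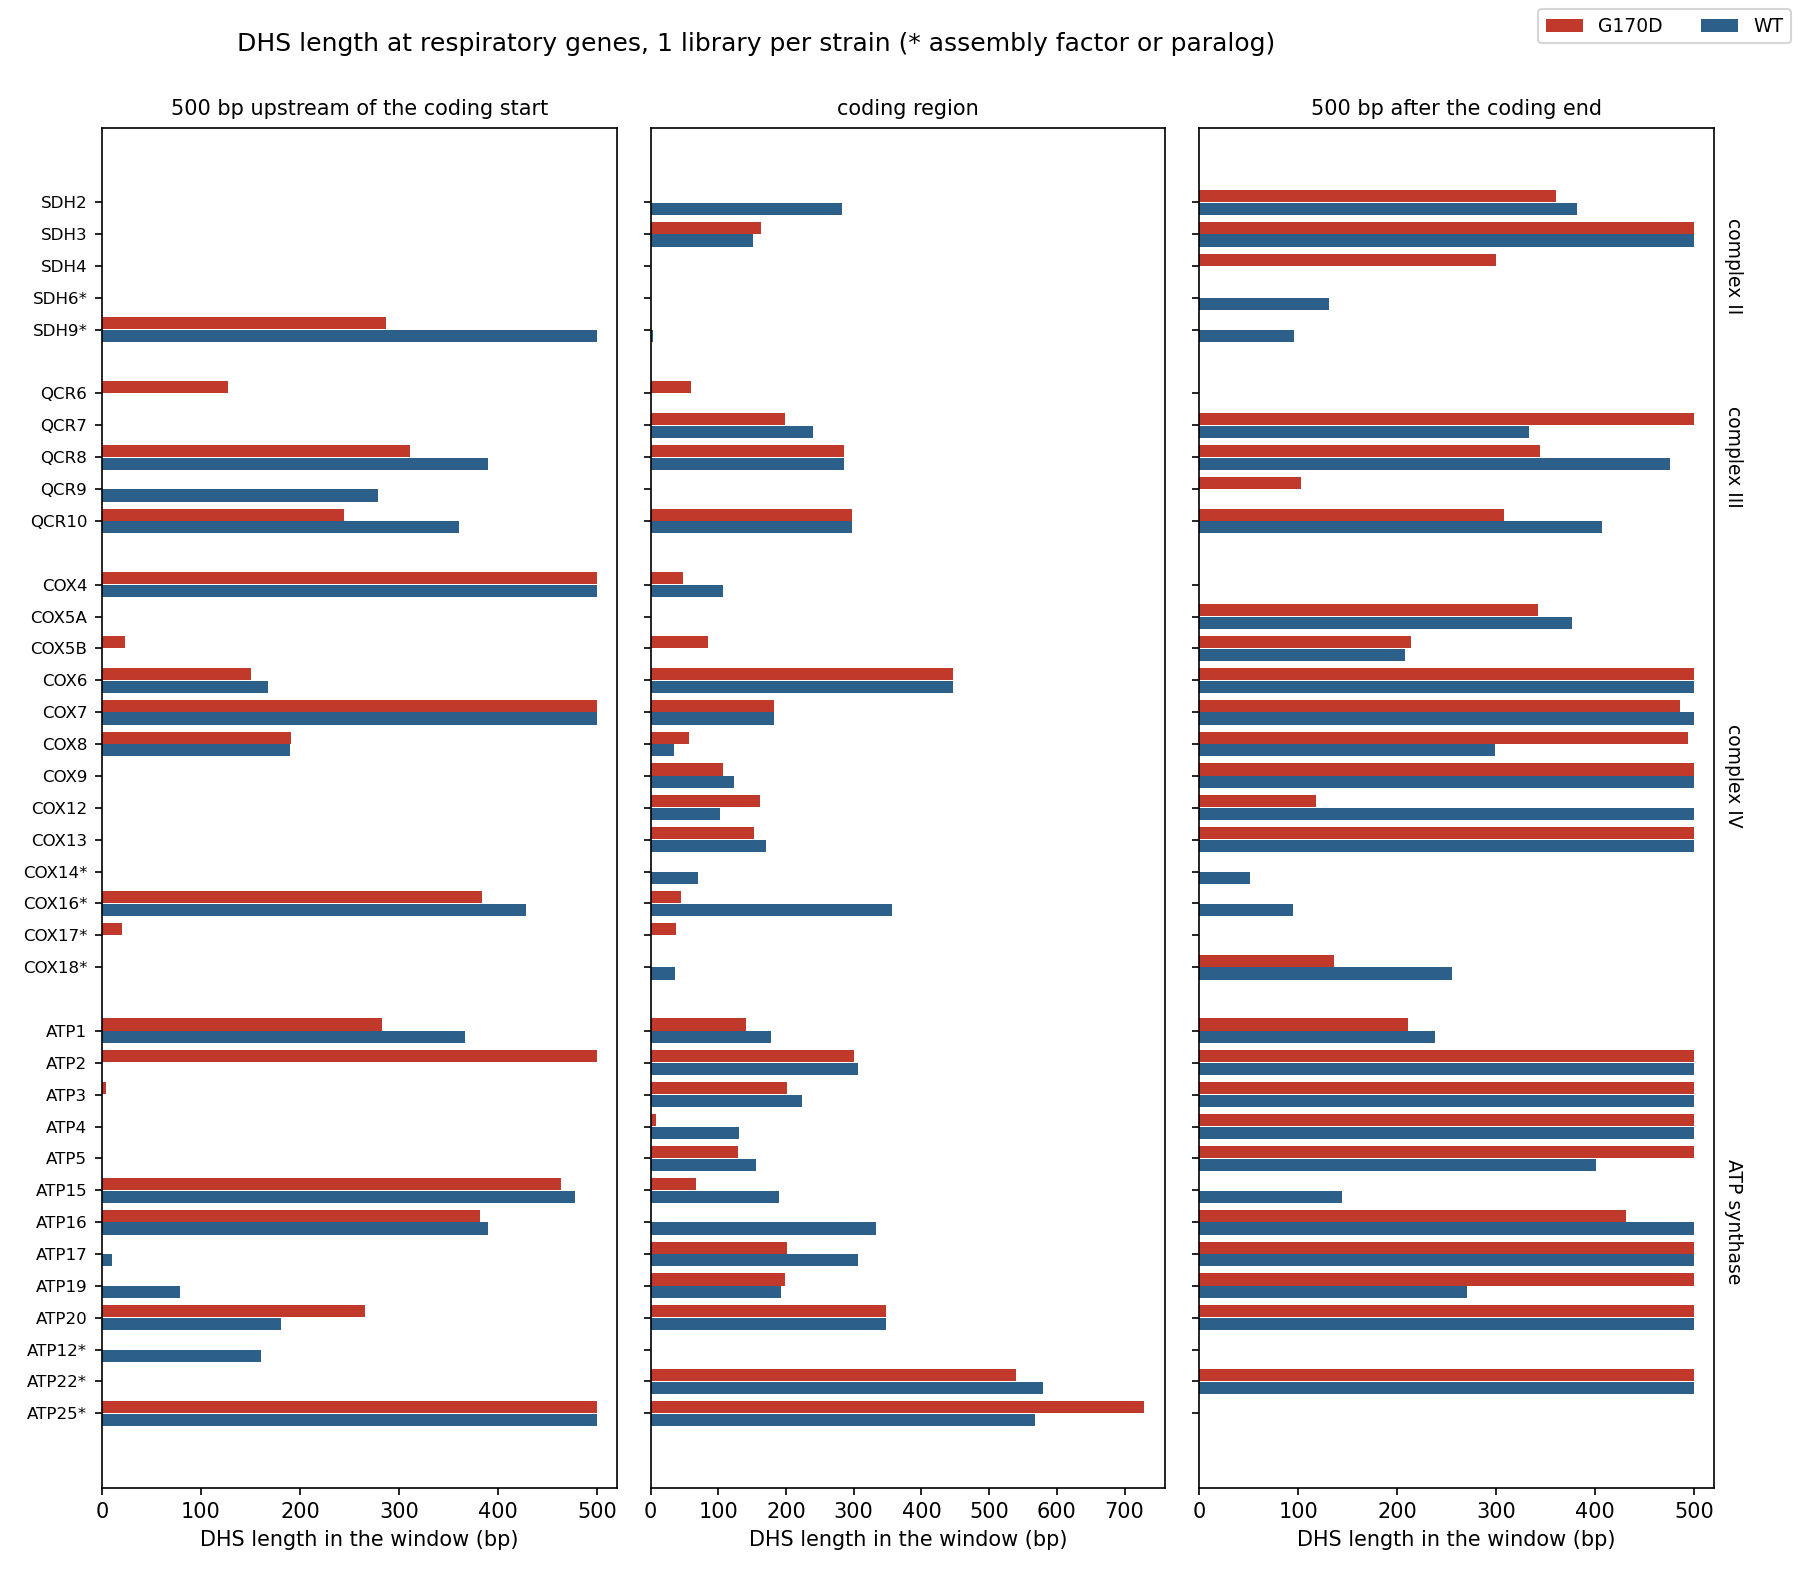
Horizontal bars give the DHS length in bp in each of the 3 windows for the 36 members with a DHS in either strain, with G170D above WT for each gene, 1 library each. ATP2 has an upstream bar of 500 bp in G170D and none in WT, and the bars after the coding end are long in both strains for most subunits.

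Upstream of the coding start, the members had DHS about as often as other genes and differed between the strains at a few named genes. A DHS touched the upstream window of 18 members in G170D (33.3%, 21.1 to 47.5) and 17 in WT (31.5%, 19.5 to 45.6), against 29.6% of all genes in G170D and 31.6% in WT. It was found in both strains for 13 members (24.1%, against 24.6% of all genes), in G170D only for 5 (9.26%, against 4.98% of all genes) and in WT only for 4 (7.41%, against 7.05% of all genes). These are small counts, and the G170D-only members numbered 4 without ATP2 (7.55%). Mean upstream length was 95.1 bp in G170D and 102 bp in WT, against 89.6 and 98.5 bp over all genes, and medians were 0 bp in each case. The difference of -6.37 bp between the members' means was -15.9 bp without ATP2 and changed sign with windows of 1000 bp (2.81 bp) and among structural subunits alone (1.64 bp).

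ATP2, which encodes the catalytic beta subunit of the ATP synthase, had the largest upstream difference of all members. Its gene lies on chromosome X from 647607 to 649142 on the plus strand (sacCer3, the same assembly as R64). The upstream window held 500 bp of DHS and 17 footprints in G170D, against 0 bp and 0 footprints in WT. The G170D region ran from 646680 to 647707, carried 33 footprints and ranked at place 224 of 2875 by the authors' score, within the top 7.79% of that list. No WT region overlapped it. Of its 500 bp upstream of ATP2, 351 bp lay within the coding region of the neighbouring gene DMO1, which ends 130 bp before the ATP2 start. Footprint midpoints ran from -469 to -29 bp relative to the coding start, and the strongest by the authors' score lay at -232 bp (score -8.60, 6 bp wide, X:647373-647378). The next strongest lay at -71 bp (score -7.62, 19 bp wide, X:647527-647545). The ATP2 body held 300 bp of DHS in G170D, the first bases of it from this region, and 306 bp in WT. The window after the coding end was covered whole in both strains. Whether the locus was altered in either strain was not tested.

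The other G170D-only upstream windows were narrow. QCR6, the acidic hinge protein of complex III, held 127 bp and 1 footprint in G170D and 0 bp and 0 footprints in WT. COX5B, the hypoxic form of subunit V of complex IV, held 23 bp in G170D and 0 bp in WT. COX17, a copper chaperone for complex IV, held 20 bp in G170D and 0 bp in WT. ATP3, the gamma subunit of the ATP synthase, held 4 bp in G170D and 0 bp in WT. COX5B, COX17 and ATP3 had no upstream footprint in either strain. Under a minimum of 50 bp of DHS, ATP2 and QCR6 were the 2 G170D-only members.

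**Figure D2:**
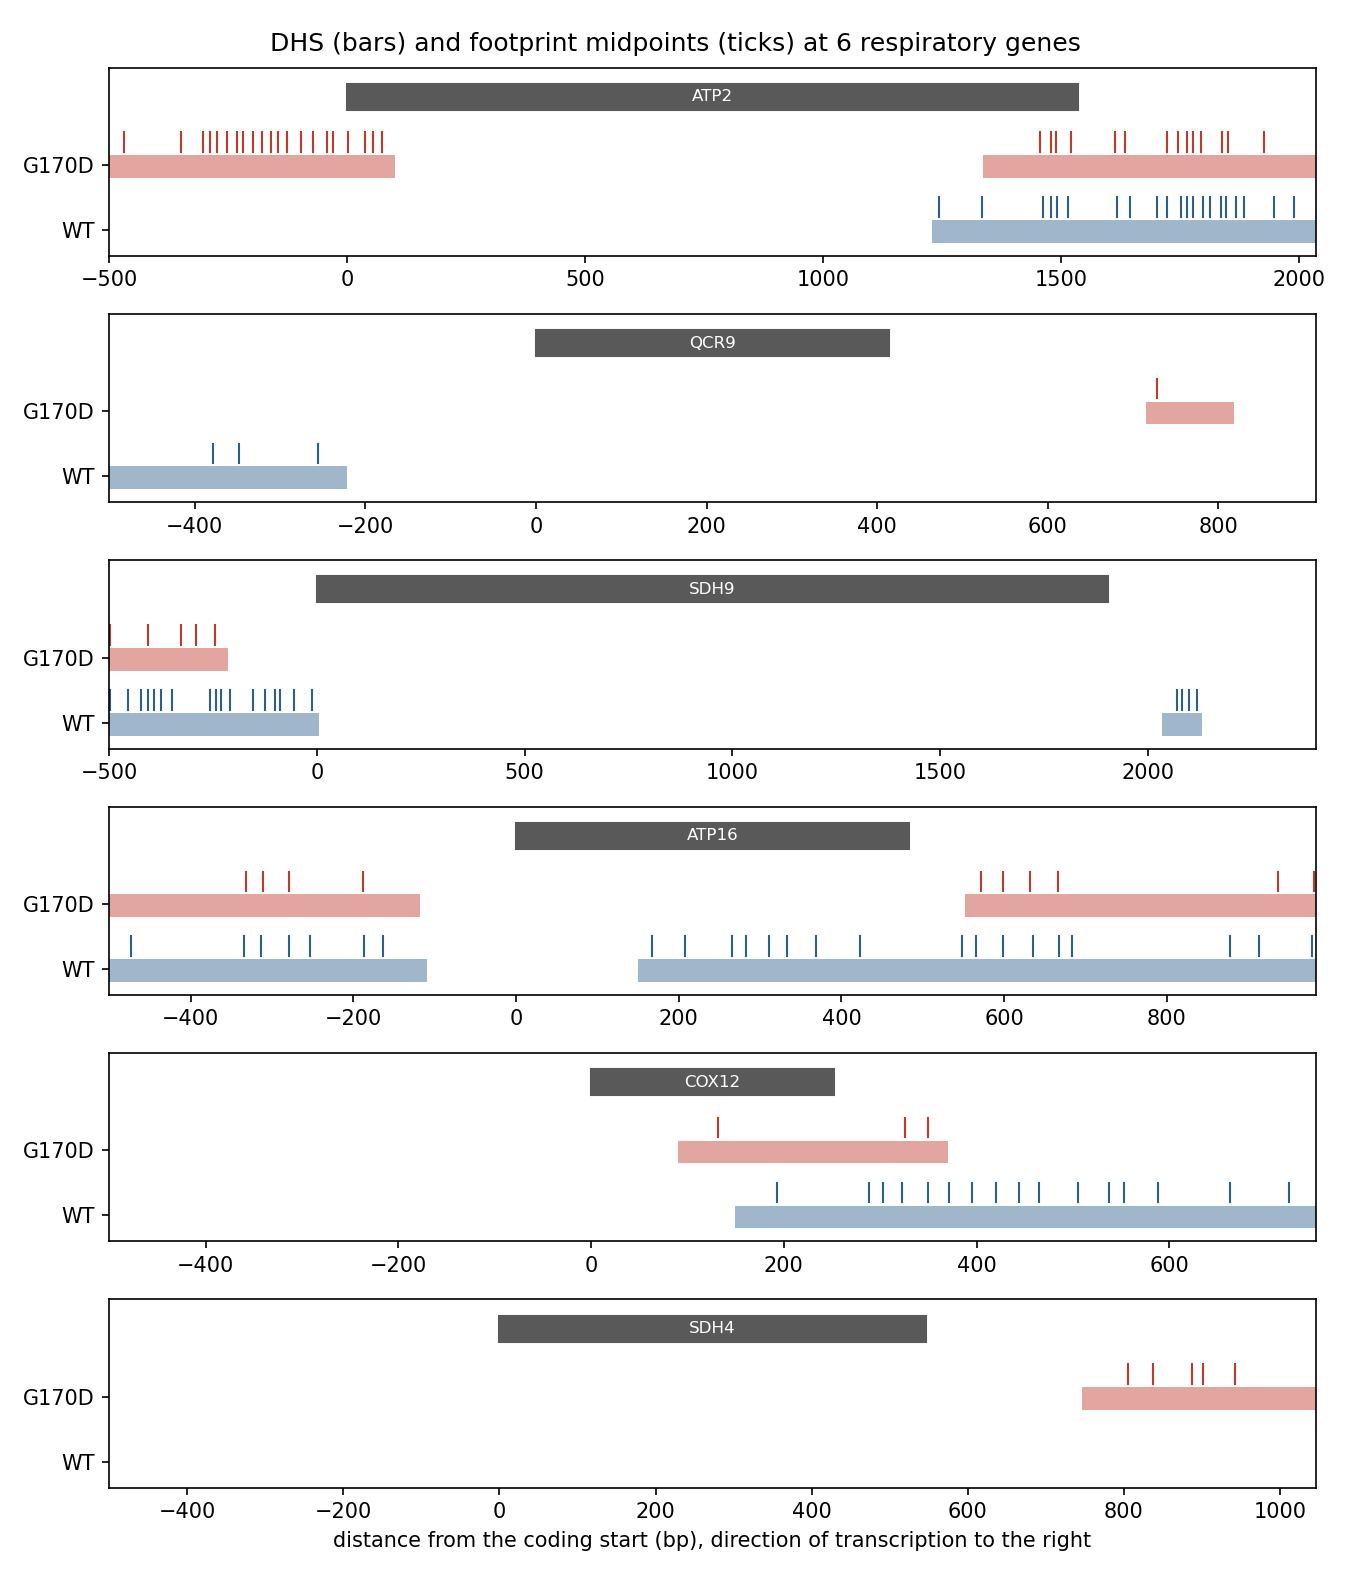
DHS (bars) and footprint midpoints (ticks) are drawn against the distance in bp from the coding start at ATP2, QCR9, SDH9, ATP16, COX12 and SDH4, with G170D above WT and the gene body as a dark bar. A G170D bar lies over the ATP2 start with no WT bar beneath it, while the bars at the ATP2 end overlap.

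WT-only upstream windows belonged to QCR9, ATP12, ATP19 and ATP17. QCR9, a small subunit of complex III, held 0 bp and 0 footprints in G170D, against 279 bp and 3 footprints in WT. ATP12, a chaperone for assembly of the F1 alpha subunit, held 0 bp in G170D and 161 bp with 3 footprints in WT, all of it within the coding region of the divergent neighbour PFD1. ATP19, subunit k of the ATP synthase, held 0 bp in G170D and 79 bp with 1 footprint in WT. ATP17, subunit f, held 0 bp in G170D and 10 bp with no footprint in WT. The WT regions at QCR9 and ATP12 were weak, at places 2740 and 2367 of 3155, and neither overlapped a G170D region. Those upstream of ATP19 and ATP17 stood at places 1830 and 678. When DHS narrower than the list median were left out, 1 member each was left as G170D only and WT only.

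Among the 13 members with an upstream DHS in both strains, the DHS length within the window was longer in G170D for 2, longer in WT for 8 and equal for 3. Over all genes with one in both strains it was longer in G170D for 375, longer in WT for 698 and equal for 403. The 3 equal members filled the window in both strains, and their whole regions differed in length. COX4 and COX7, subunits of complex IV, and ATP25, which is needed for the mRNA of the mitochondrial ATP9 gene, were covered over all 500 bp in both strains. With ATP2 in G170D and SDH9 in WT, fully covered upstream windows numbered 4 in each strain, against 7.53% of all genes in G170D and 9.8% in WT. ATP25 held 16 footprints in G170D and 19 in WT, COX7 held 9 in G170D and 15 in WT, and COX4 held 7 in G170D and 8 in WT. Of these 3, COX7 differed most in footprint number. SDH9 held 287 bp and 5 footprints in G170D, against 500 bp and 17 footprints in WT. A tRNA gene lies within 500 bp of SDH9. QCR8, a subunit of complex III, held 311 bp and 6 footprints in G170D and 390 bp and 13 footprints in WT. ATP1, the alpha subunit of the ATP synthase, held 283 bp and 5 footprints in G170D and 367 bp and 9 footprints in WT. ATP20, subunit g, was longer in G170D, with 266 bp and 5 footprints against 181 bp and 3 footprints in WT. In the remaining 6 (ATP15, ATP16, COX6, COX8, COX16 and QCR10) upstream length ran from 151 to 464 bp in G170D and from 168 to 478 bp in WT.

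In the gene bodies, coverage at the members was above that of all genes in both strains. A DHS touched 26 bodies in G170D (48.1%, 34.3 to 62.2) and 28 in WT (51.9%, 37.8 to 65.7), against 40.2% of all genes in G170D and 44.9% in WT. Covered length averaged 21.7% of the body in G170D and 27.2% in WT, against 11.6% and 14.9% over all genes. The members are short, with a median span of 465 bp against 1200 bp for all genes. Among genes of up to 1000 bp, the 45 members averaged 23.9% in G170D and 30.6% in WT, and all genes of that length averaged 15.6% in G170D and 20.1% in WT. The median member had 0 bp of body DHS in G170D and 19 bp in WT, and the median of all genes was 0 bp in each strain. Body DHS was longer in G170D for 8 members, longer in WT for 18 and equal for 5. Over all genes it was longer in G170D for 824 and longer in WT for 1989.

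The body differences lay mostly towards WT, as they did over all genes. A body DHS was found in both strains for 23 members (42.6%, against 35.2% of all genes). It was found in G170D only for 3 (5.56%, against 5% of all genes) and in WT only for 5 (9.26%, against 9.68% of all genes). ATP16, the delta subunit of the ATP synthase, held 0 bp and 0 footprints in G170D, against 333 bp and 8 footprints in WT. The WT region there spanned 1472 bp (IV:443179-444650), and its G170D counterpart spanned 601 bp (IV:443581-444181) and began after the coding end. COX16, an assembly factor of complex IV, held 45 bp and 1 footprint in G170D and 357 bp and 5 footprints in WT. SDH2, the iron-sulphur subunit of complex II, held 0 bp in G170D and 283 bp with 1 footprint in WT. ATP4, subunit b of the ATP synthase stalk, held 8 bp in G170D and 131 bp in WT. ATP25 was longer in G170D, with 728 bp and 14 footprints in G170D and 567 bp and 9 footprints in WT. The further G170D-only bodies were COX5B (85 bp), QCR6 (59 bp) and COX17 (38 bp), and the further WT-only bodies were COX14 (70 bp), COX18 (36 bp) and SDH9 (4 bp). COX6, COX7, QCR8, QCR10 and ATP20 were covered over the whole body in both strains, and ATP15, ATP17 and COX16 in WT only. Fully covered bodies thus numbered 5 of 54 in G170D and 8 in WT, against 189 of all 6002 genes in G170D and 261 in WT. Among the 2410 genes of up to 1000 bp they numbered 170 in G170D and 225 in WT.

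After the coding end, the members were covered more than all genes in both strains, and the difference between the strains moved with the window. A DHS touched this window in 26 members in G170D (48.1%, 34.3 to 62.2) and 29 in WT (53.7%, 39.6 to 67.4), against 39.3% of all genes in G170D and 43.2% in WT. The window was covered over all 500 bp in 13 members in each strain, against 11.9% of all genes in G170D and 15.1% in WT, and 10 members were fully covered in both. These 10 were SDH3, COX6, COX9, COX13, ATP2, ATP3, ATP4, ATP17, ATP20 and the translation and assembly factor ATP22. Mean length was 192 bp in G170D and 197 bp in WT, against 126 and 146 bp over all genes. Medians were 0 bp in G170D and 95.5 bp in WT, against 0 bp for all genes in each strain. Of the DHS length in these windows, 15.5% in G170D and 16.3% in WT lay within another coding region, so most of it lay outside coding regions. The neighbour on that side was convergent for 25 members and tandem for 29, and a DHS was present at 12 convergent ends in G170D and 13 in WT and at 14 tandem ends in G170D and 16 in WT. Convergent members thus had one in 48.0% in G170D and 52.0% in WT, against 44.2% and 48.6% of all convergent genes. Tandem members had one in 48.3% in G170D and 55.2% in WT, against 34.2% and 37.7% of all tandem genes.

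Single genes differed at the end as well. COX12, subunit VIb of complex IV, held 118 bp and 2 footprints in G170D, against 500 bp and 15 footprints in WT. SDH4, a membrane anchor of complex II, held 300 bp and 5 footprints in G170D, against 0 bp and 0 footprints in WT, and 288 bp of the G170D length lay within the convergent gene CSN9. That G170D region spanned 1738 bp and shared 1331 bp with a WT DHS, all of it beyond the window. ATP19 held 500 bp and 6 footprints in G170D and 271 bp and 4 footprints in WT. COX8 held 494 bp and 8 footprints in G170D and 299 bp and 4 footprints in WT. QCR7 held 500 bp and 8 footprints in G170D and 333 bp and 10 footprints in WT, where the length came as separate regions. A DHS after the coding end was found in both strains for 24 members (44.4%, against 34.5% of all genes). It was found in G170D only at SDH4 and QCR9 (3.70%, against 4.73% of all genes). In WT only it was found at ATP15 (144 bp), SDH6 (131 bp), SDH9 (96 bp), COX16 (95 bp) and COX14 (51 bp). These were 9.26% of the members, against 8.68% of all genes. The mean difference between the strains, -5.85 bp, changed sign with windows of 300 bp (0.852 bp) and with structural subunits alone (5.33 bp), and it was -21.8 bp with windows of 1000 bp.

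Among the members, a DHS after the coding end was more frequent at structural subunit genes than at assembly factor genes in both libraries, a difference that was not tested. The further pathway genes described below did not show this split. Of 16 further genes for subunits, electron carriers and NADH dehydrogenases, 31.3% had such a DHS in G170D and 37.5% in WT. For 35 further assembly and expression factors the share was 37.1% in each strain. A DHS lay after the end of 24 of 33 subunit genes in G170D (72.7%, 54.5 to 86.7) and 23 in WT (69.7%, 51.3 to 84.4). Among assembly factors and the paralog it lay after the end of 2 of 21 in G170D (9.52%, 1.17 to 30.4) and 6 of 21 in WT (28.6%, 11.3 to 52.2). Over all genes it was 39.3% in G170D and 43.2% in WT. The 2 were ATP22 and COX18, and a tRNA gene lies within 500 bp of ATP22. By complex, the subunit genes with a DHS after the end numbered 3 of 4 in G170D and 2 of 4 in WT for complex II, 4 of 6 and 3 of 6 for complex III, 8 of 10 in each strain for complex IV, and 9 of 13 and 10 of 13 for the ATP synthase. Bodies of subunit genes were touched in 22 of 33 in each strain (66.7%), and bodies of assembly factors and the paralog in 4 of 21 in G170D (19.0%) and 6 of 21 in WT (28.6%). All genes stood at 40.2% in G170D and 44.9% in WT. Upstream windows differed less, with 14 of 33 in G170D (42.4%) and 13 of 33 in WT (39.4%) for subunits and 4 of 21 in each strain for the rest (19.0%), against 29.6% in G170D and 31.6% in WT over all genes. Subunit genes were also shorter, with a median of 444 bp against 813 bp. The part of gene length in these shares was not tested.

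**Figure D3:**
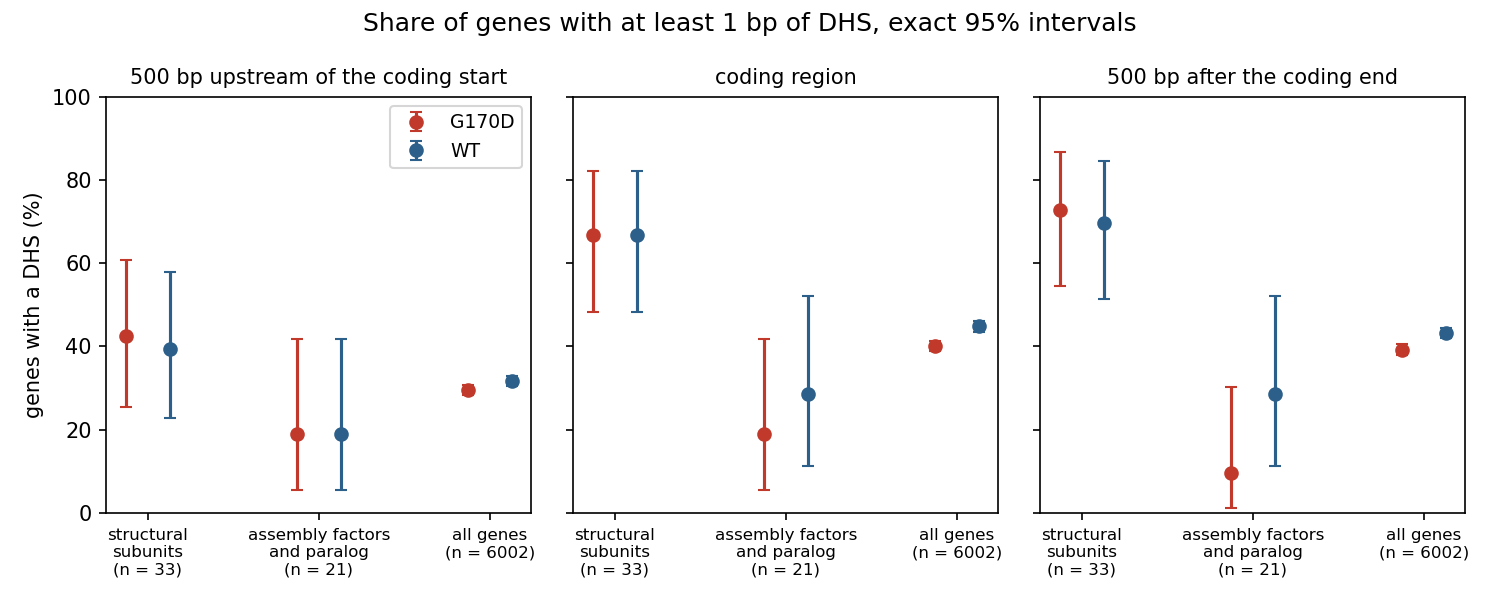
The share of genes with a DHS is given in percent with exact 95% intervals for structural subunits, for assembly factors with the paralog, and for all genes, in the 3 windows, with G170D left of WT. After the coding end, subunits stand at 72.7% in G170D and 69.7% in WT, and assembly factors at 9.52% and 28.6%.

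Along the subunit genes, coverage was higher at the end than at the start, as it was over all genes. In the 100 bp before the coding start it was 31.0% in G170D and 26.9% in WT, against 17.7% and 19.7% over all genes. From 200 to 300 bp after the coding end it was 63.1% in G170D and 58.5% in WT, against 26.8% and 30.7% over all genes and 6.24% and 11.0% for assembly factors. The strains were furthest apart 200 to 300 bp before the coding end, with 21.3% in G170D and 37.3% in WT. In subunit genes shorter than 300 bp, such as COX9 (180 bp) and COX12 (252 bp), that bin lay partly or wholly upstream of the coding start. Over all genes the same bin had 13.0% in G170D and 18.7% in WT. With each body of a member cut into 3 equal parts, the part at the coding end was covered over 26.1% in G170D and 35.1% in WT, and the part at the coding start over 20.9% in G170D and 21.0% in WT.

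**Figure D4:**
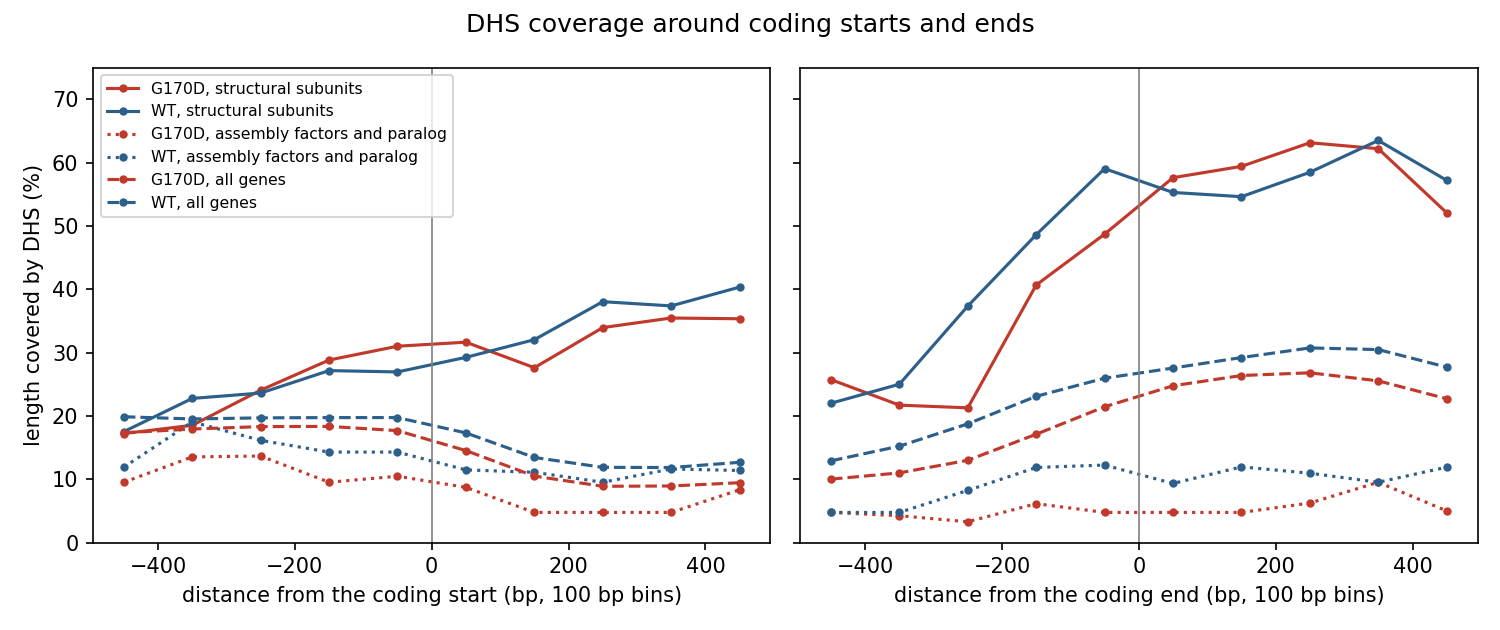
Lines give the percent of length covered by DHS in 100 bp bins around coding starts and coding ends, for structural subunits (solid), assembly factors with the paralog (dotted) and all genes (dashed), in G170D and WT. The subunit lines are highest after the coding end, near 60% in both strains, and the G170D line is below the WT line just before the end.

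Footprints at the members were fewer in the G170D list, as they were over all genes. Upstream windows held 90 footprints in G170D and 121 in WT, a ratio of 0.744 (0.560 to 0.985), against 0.822 over all genes. Bodies held 83 in G170D and 102 in WT, a ratio of 0.814 (0.602 to 1.10), against 0.691 over all genes. Windows after the coding end held 205 in G170D and 253 in WT, a ratio of 0.810 (0.671 to 0.978), against 0.756 over all genes. Each of these intervals holds the value of all genes. Without ATP2, which was left out after its values were seen, the members had 73 upstream footprints in G170D and 121 in WT. That ratio was 0.603 (0.445 to 0.813). Footprints lie grouped within DHS while the intervals treat them as independent, so a departure from all genes was not tested. The G170D list is shorter, and with footprint lists of the same number the members' ratios turned to 1.01 upstream, 1.20 in bodies and 1.08 after the coding end. Ratios over all genes were not recomputed with such lists. The members had 17.8 kb of DHS shared by the strains, and in it there were 18.3 footprints per kb in G170D and 22.5 in WT, against 18.5 and 22.4 per kb over all genes.

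By complex, upstream footprints numbered 5 in G170D and 17 in WT for complex II, all of them at SDH9. Complex III held 10 in G170D and 23 in WT, and complex IV held 23 in G170D and 33 in WT. The ATP synthase held 52 in G170D and 48 in WT, and 17 of the 52 lay at ATP2. Upstream footprints were more numerous in G170D at ATP2, ATP20 and QCR6 and more numerous in WT at 14 members, against 645 and 1235 of all genes. Of the footprints in the length covered by both strains, 75.5% of those in G170D (70.4 to 80.0) overlapped a WT footprint, against 70.9% over all genes, and 63.2% of those in WT (58.3 to 68.0) overlapped a G170D footprint, against 59.4% over all genes. Over the 3 windows of ATP3, 17 of 18 footprints in each strain overlapped one of the other. At COX12 it held for 2 of 3 in G170D and 2 of 16 in WT, where only 5 of the 16 lay in DHS of both strains. At COX5B the regions of the strains did not overlap, so the 7 G170D and 2 WT footprints could not recur.

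**Figure D5:**
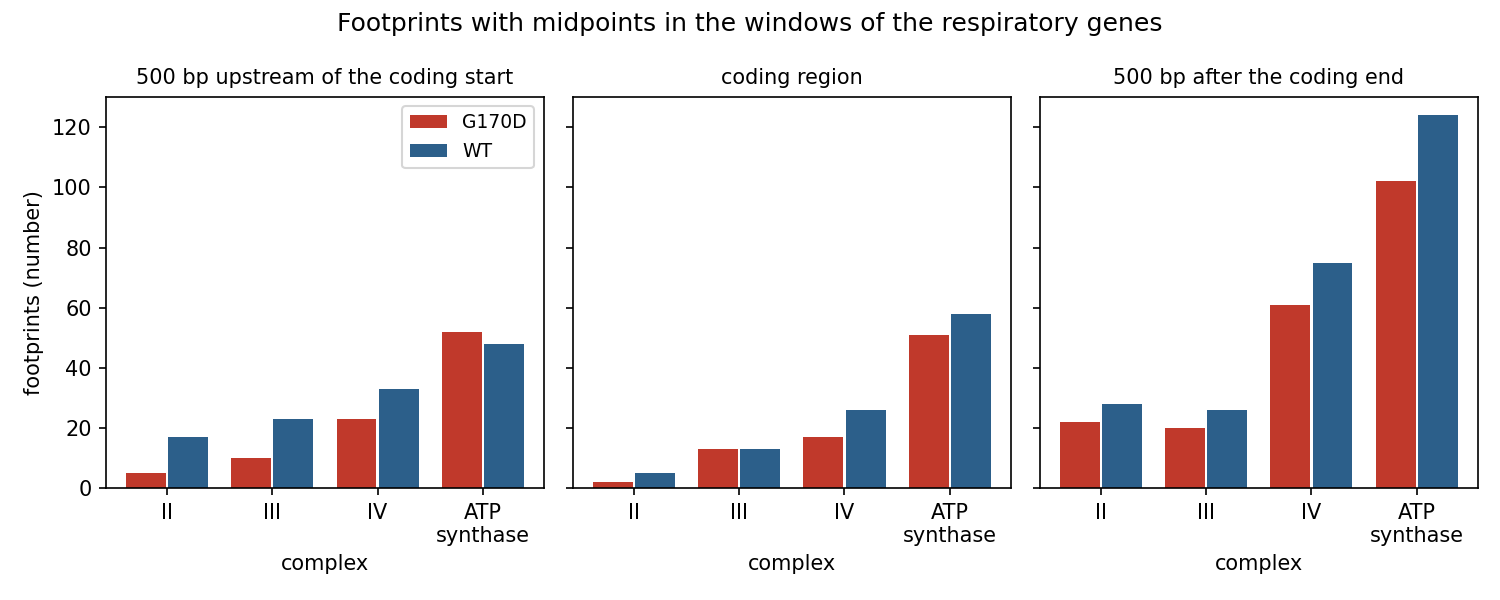
Bars give the number of footprints with midpoints in each window, summed over the members of complex II, complex III, complex IV and the ATP synthase, with G170D left of WT. Upstream, the ATP synthase has 52 in G170D and 48 in WT, and the other complexes have fewer in G170D.

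Other genes of the pathway were read the same way, and over all genes an upstream DHS was present in 29.6% in G170D and 31.6% in WT, in G170D only in 4.98% and in WT only in 7.05%. Of 16 further genes for subunits, electron carriers and NADH dehydrogenases, 3 had an upstream DHS in G170D (18.8%) and 5 in WT (31.3%), with 0 in G170D only and 2 in WT only. The 2 were NDE1, an external NADH dehydrogenase, with 0 bp in G170D and 84 bp in WT, and STF1, which acts with the ATP synthase inhibitor, with 0 bp in G170D and 12 bp in WT. CYT1, which encodes cytochrome c1 of complex III, held 162 bp and 4 footprints in G170D and 500 bp and 11 footprints in WT. Of 35 further assembly and expression factors, 12 had an upstream DHS in G170D (34.3%) and 9 in WT (25.7%), with 4 in G170D only and 1 in WT only. The 4 were PET309 (233 bp), a translational activator of the COX1 mRNA, CMC2 (167 bp), PET494 (56 bp), a translational activator of the COX3 mRNA, and COA2 (42 bp), and the 1 was TCM62 (79 bp), which acts in assembly of complex II. Of 12 transcription regulators, 1 had an upstream DHS in G170D (8.33%) and 0 in WT. It was HAP4, with 479 bp and 9 footprints in G170D and 0 bp and 0 footprints in WT. HAP1, HAP2, HAP3, HAP5 and the repressor gene ROX1 had no upstream DHS in either strain.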

How the data were processed

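DHS and footprints were listed by the authors for 1 library per strain, and each deposited region has a score of unstated formula. The submitters' processing notes name Bowtie 0.12.8 and sacCer3. The DHS caller is not named there, and the footprint lists are named for dnase2tf. Genes came from the R64 gene table, the strand from the systematic name. Spans are coding starts to ends, introns included, and 96.4% are multiples of 3. BED starts were read as counted from 0 and coordinates are printed from 1. Window lengths and footprint numbers were computed with numpy 2.4.6 and pandas 2.3.3 under Python 3.11.15, and the calculation was tested on simulated lists. Ratio intervals come from the exact binomial distribution (scipy 1.17.1). Members and gene lists were chosen with earlier results of these data known. Named members have an upstream DHS in 1 strain only, an upstream difference of at least 150 bp, or one of the 5 highest upstream footprint numbers or 5 largest body or end differences. The values without ATP2 and those for genes up to 1000 bp were added after the data were seen. A planned search for promoter motifs was not run.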

Additional observations from a re-analysis of the deposited data

How the results depend on the processing

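Of 53 values recomputed under other settings, 37 stayed in the range of the reported value. That range was broad. For ratios it was the counting interval, and for counts 13 members in place of 18 in G170D lay within it. The number of members with an upstream DHS ran from 13 to 18 in G170D and from 13 to 17 in WT. DHS lists of the same number left the G170D list unchanged, and the subunit counts cover fewer genes. The 37 are thus not all independent checks. G170D-only members numbered 2 with at least 50 bp of DHS and 1 with DHS at least as wide as the list median, and WT-only members 1 with the latter. The mean upstream difference, G170D minus WT, was -0.519 bp with windows of 300 bp, 2.81 bp with 1000 bp, 0 bp with wide DHS, 1.64 bp for structural subunits and -15.9 bp without ATP2. The body difference was -5.51 percentage points and -3.49 with wide DHS. The difference after the coding end was 0.852 bp with windows of 300 bp, -21.8 bp with 1000 bp, 3.11 bp with wide DHS and 5.33 bp for subunits. Footprint ratios of the members were 1.01 upstream, 1.20 in bodies and 1.08 after the end with footprint lists of the same number, where fewer WT footprints are counted by construction. No paired analysis was possible because each strain had 1 library. Read depth is unknown, so a window with no DHS shows that none was called, and differences between lists cannot be told apart from depth.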
